A study of Rattus norvegicus with 6 samples.

Results

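Glycolysis, lactate and hypoxia genes were followed through 6 single-cell RNA libraries of rat brain as a module of 33 genes named by symbol. These genes were chosen with earlier results of these data known. The deposited gene list held 32 of them among 25399 genes. Pfkfb4 was not analysed here, and Eno2 had 2 UMIs in all kept cells and was left untested. All rats were Sprague Dawley at postnatal day 21, and brain is the only tissue label. The 3 libraries called infarction 1 to 3 came from rats with pontine infarction, a stroke of the pons in the brainstem, and the 3 called sham 1 to 3 came from sham rats. No transgene, strain difference or drug separates the groups in the labels, and the time between infarction and dissociation is not given there. The labels do not say whether a library is 1 animal or a pool, so p-values measure no more than the library-to-library spread, which may be technical. Droplets were made with the 10x Genomics 3′ kit, which counts each captured transcript molecule once as a UMI, a unique molecular identifier.

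Glycolysis splits glucose into pyruvate in the cytosol and yields ATP without oxygen. Glucose enters through facilitative transporters, hexokinases trap it as glucose 6-phosphate, phosphofructokinase makes the committed step, and the lower enzymes from aldolase to pyruvate kinase recover the energy. Lactate dehydrogenase turns pyruvate into lactate and back, and proton-linked monocarboxylate transporters carry lactate across membranes. When oxygen falls, prolyl hydroxylases stop marking the HIF-1α protein for destruction, and the HIF dimer binds a short element in the promoters of many glycolytic genes. In the brain astrocytes are known for glycolysis and lactate release, endothelial cells for glucose transport across the blood-brain barrier, and activated phagocytes for a shift towards glycolysis.

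Members that stood higher in infarction in several cell classes below are known HIF targets, so their promoters are shown here with the core of the hypoxia response element marked. RefSeq promoters of the rat build GRCr8, running from 250 bases before to 50 bases after the start of a gene, were matched by symbol for 30 of the 33 named genes in 34 windows. Slc2a3, Pgk1 and Ndrg1 had no entry. The letters ACGTG, on either strand, were found in at least 1 window of 20 of the 30 genes (66.7%), against 4075 of 19005 protein-coding genes (21.4%). The letters GCGTG were found in 14 of the 30 (46.7%), against 36.9% of all protein-coding genes. CACGTG, which reads ACGTG on both strands, was found in 7 of the 30 (23.3%), against 7.69%. Median GC content was 63.2% over the members' windows and 55.0% over all 21851 windows, and its part in these shares was not tested. Known HIF targets were among the genes named for the module, so shares above those of all genes are no independent result. A match is a run of letters and no more: the libraries carry no measure of factor binding.

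Printed 5′ to 3′ on the strand of the gene, with ACGTG or GCGTG on either strand in capitals, the promoters of Ldha at chr1:106507842-106508141 on the plus strand, Bnip3 at chr1:203154913-203155212 on the minus strand and Pfkfb3 at chr17:71944683-71944982 on the plus strand hold matches. Those of Hk2 at chr4:116841226-116841525 on the minus strand and Slc16a3 at chr10:106712078-106712377 on the plus strand hold none and are shown because Hk2 moved opposite to most members in microglia-like cells and Slc16a3 is the lactate exporter that changed most in macrophage-like cells. That choice was made after their values were seen. Tpi1, Pkm, Adm and Egln3 also hold none and were called higher in microglia-like and macrophage-like cells. The other members called lower in microglia-like cells, Pfkm, Aldoc, Ankrd37 and P4ha1, hold matches. A link between matches and direction was not tested.
Ldha: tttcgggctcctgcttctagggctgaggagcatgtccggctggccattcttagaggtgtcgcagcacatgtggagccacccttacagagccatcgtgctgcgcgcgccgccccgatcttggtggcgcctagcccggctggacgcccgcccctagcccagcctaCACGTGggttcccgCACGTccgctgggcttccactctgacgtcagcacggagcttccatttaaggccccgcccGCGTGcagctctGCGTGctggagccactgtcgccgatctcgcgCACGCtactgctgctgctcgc
Bnip3: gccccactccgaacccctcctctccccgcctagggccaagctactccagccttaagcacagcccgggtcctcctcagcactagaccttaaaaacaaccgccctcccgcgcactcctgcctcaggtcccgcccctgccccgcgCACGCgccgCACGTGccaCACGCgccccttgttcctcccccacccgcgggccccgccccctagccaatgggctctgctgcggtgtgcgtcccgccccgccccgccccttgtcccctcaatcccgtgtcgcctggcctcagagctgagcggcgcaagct
Pfkfb3: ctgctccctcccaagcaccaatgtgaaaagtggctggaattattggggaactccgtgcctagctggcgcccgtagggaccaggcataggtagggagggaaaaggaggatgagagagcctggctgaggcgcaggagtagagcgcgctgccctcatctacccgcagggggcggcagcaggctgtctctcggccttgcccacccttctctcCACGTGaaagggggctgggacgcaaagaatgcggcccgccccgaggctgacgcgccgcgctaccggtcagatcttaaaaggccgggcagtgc
Hk2: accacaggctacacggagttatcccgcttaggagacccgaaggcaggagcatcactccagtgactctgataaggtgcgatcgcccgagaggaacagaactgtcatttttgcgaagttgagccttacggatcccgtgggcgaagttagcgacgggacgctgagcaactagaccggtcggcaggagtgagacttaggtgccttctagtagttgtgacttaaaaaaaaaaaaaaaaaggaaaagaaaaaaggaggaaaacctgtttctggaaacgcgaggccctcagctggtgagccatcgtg
Slc16a3: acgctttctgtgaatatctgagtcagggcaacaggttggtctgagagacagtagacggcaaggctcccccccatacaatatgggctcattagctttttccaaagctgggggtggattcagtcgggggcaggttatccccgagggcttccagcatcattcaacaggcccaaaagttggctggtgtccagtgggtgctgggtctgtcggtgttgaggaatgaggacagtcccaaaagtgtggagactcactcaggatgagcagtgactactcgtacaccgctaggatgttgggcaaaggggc

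Of 44011 barcodes, 37853 cells were kept: 5873, 7255 and 5941 in infarction 1 to 3, and 5914, 6327 and 6543 in sham 1 to 3. They held 60996585 to 62559967 UMIs a library in infarction and 50976410 to 62875211 in sham. Any pair of libraries shared 7 to 18 barcodes, 184 barcodes in all. Clusters were named from marker lists, as microglia-like and so on, and 5 classes had at least 20 cells in every library: microglia-like, macrophage-like, T or NK-like, endothelial-like and oligodendrocyte-like. The groups held different cells. Smooth muscle-like cells numbered 0, 0 and 1 in infarction 1 to 3, against 2676, 2234 and 2440 in sham 1 to 3, and neutrophil-like cells 2073, 1408 and 989 in infarction, against 13, 44 and 12 in sham. Macrophage-like cells numbered 1391, 1510 and 1722 in infarction, against 154, 154 and 120 in sham. Cells of clusters left unnamed, which are in no class, numbered 1083, 2556 and 1646 in infarction, against 88, 370 and 426 in sham.

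The 32 genes together took, of all UMIs of the kept cells, 0.815%, 0.724% and 0.685% in infarction 1 to 3, against 0.365%, 0.391% and 0.353% in sham 1 to 3. The libraries of both groups do not overlap, and infarction 1 is the highest. In macrophage-like cells their summed share of UMIs was 1.13%, 0.992% and 0.854% in infarction 1 to 3, against 0.208%, 0.210% and 0.226% in sham 1 to 3. In microglia-like cells it was 0.502%, 0.479% and 0.463% in infarction 1 to 3, against 0.272%, 0.307% and 0.290% in sham 1 to 3. T or NK-like cells gave 0.301%, 0.285% and 0.337% in infarction 1 to 3, against 0.257%, 0.243% and 0.260% in sham 1 to 3. In endothelial-like cells the ranges met: 0.718%, 0.595% and 0.656% in infarction 1 to 3, against 0.564%, 0.564% and 0.653% in sham 1 to 3. Oligodendrocyte-like cells gave 0.521%, 0.588% and 0.355% in infarction 1 to 3, against 0.389%, 0.367% and 0.374% in sham 1 to 3, and infarction 3 lay below every sham library. Such a share weights the most abundant genes, so it describes the module and was not tested.

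Cell classes differed in which members they carried. Levels of classes are plain CPM (the UMIs of a gene per 1000000 UMIs of the class), given as mean ± SD over the libraries with at least 20 cells of the class, and no test was made because the classes were built from the same genes. Only classes with at least 2 such libraries were compared, and unnamed clusters were left out. Among 9 classes compared in infarction libraries, macrophage-like cells had the highest mean for 7 of the 31 members with more than 3 UMIs in a group, endothelial-like and monocyte-like cells for 6 each and neutrophil-like cells for 5. In 13 of the 31 the libraries of the leading class all stood above those of the next, and 23 kept their leading class when every cell was thinned to 1000 UMIs. Ldha, which makes lactate from pyruvate, averaged 2527 ± 134 in monocyte-like cells of infarction libraries, above 2055 ± 353 in macrophage-like cells. Slc16a3, the MCT4 lactate exporter, averaged 308 ± 27.0 in neutrophil-like cells, and the next class, monocyte-like cells, had 119.8 ± 23.1. Monocyte-like cells also led for Hif1a, the oxygen-regulated HIF subunit, at 444 ± 8.99, and for Pfkfb3, the kinase that makes the activator of phosphofructokinase, at 159 ± 17.9. For these 4 genes every library of the leading class stood above every library of the next.

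Among 13 classes compared in sham libraries, neuron-like cells had the highest mean for 10 members, astrocyte-like cells for 6 and microglia-like cells for 4. Libraries of the leading class stood apart in 20 of the 31, and 24 kept their leading class after thinning. Aldoc, the brain aldolase, averaged 4421 ± 269.9 in astrocyte-like cells, against 551 ± 30.4 in the next class, oligodendrocyte precursor-like cells. Pfkm, the muscle-type phosphofructokinase, averaged 413 ± 29.2 in astrocyte-like cells and 275 ± 56.8 in neuron-like cells. Slc2a3, the neuronal glucose transporter GLUT3, averaged 159.9 ± 47.5 in neuron-like cells and 40.3 ± 8.41 in T or NK-like cells. Neutrophil-like cells reached 20 cells in sham 2 alone and were not compared, with 363 CPM of Slc2a3 and 716 CPM of Slc16a3 there. Slc2a1, the barrier transporter GLUT1, was led by endothelial-like cells in both groups, with 2622 ± 279 in infarction and 2337 ± 274 in sham. Hk2, the inducible hexokinase, was highest in microglia-like cells of sham libraries, at 986 ± 61.5, against 336 ± 18.7 in macrophage-like cells.

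**Figure D1:**
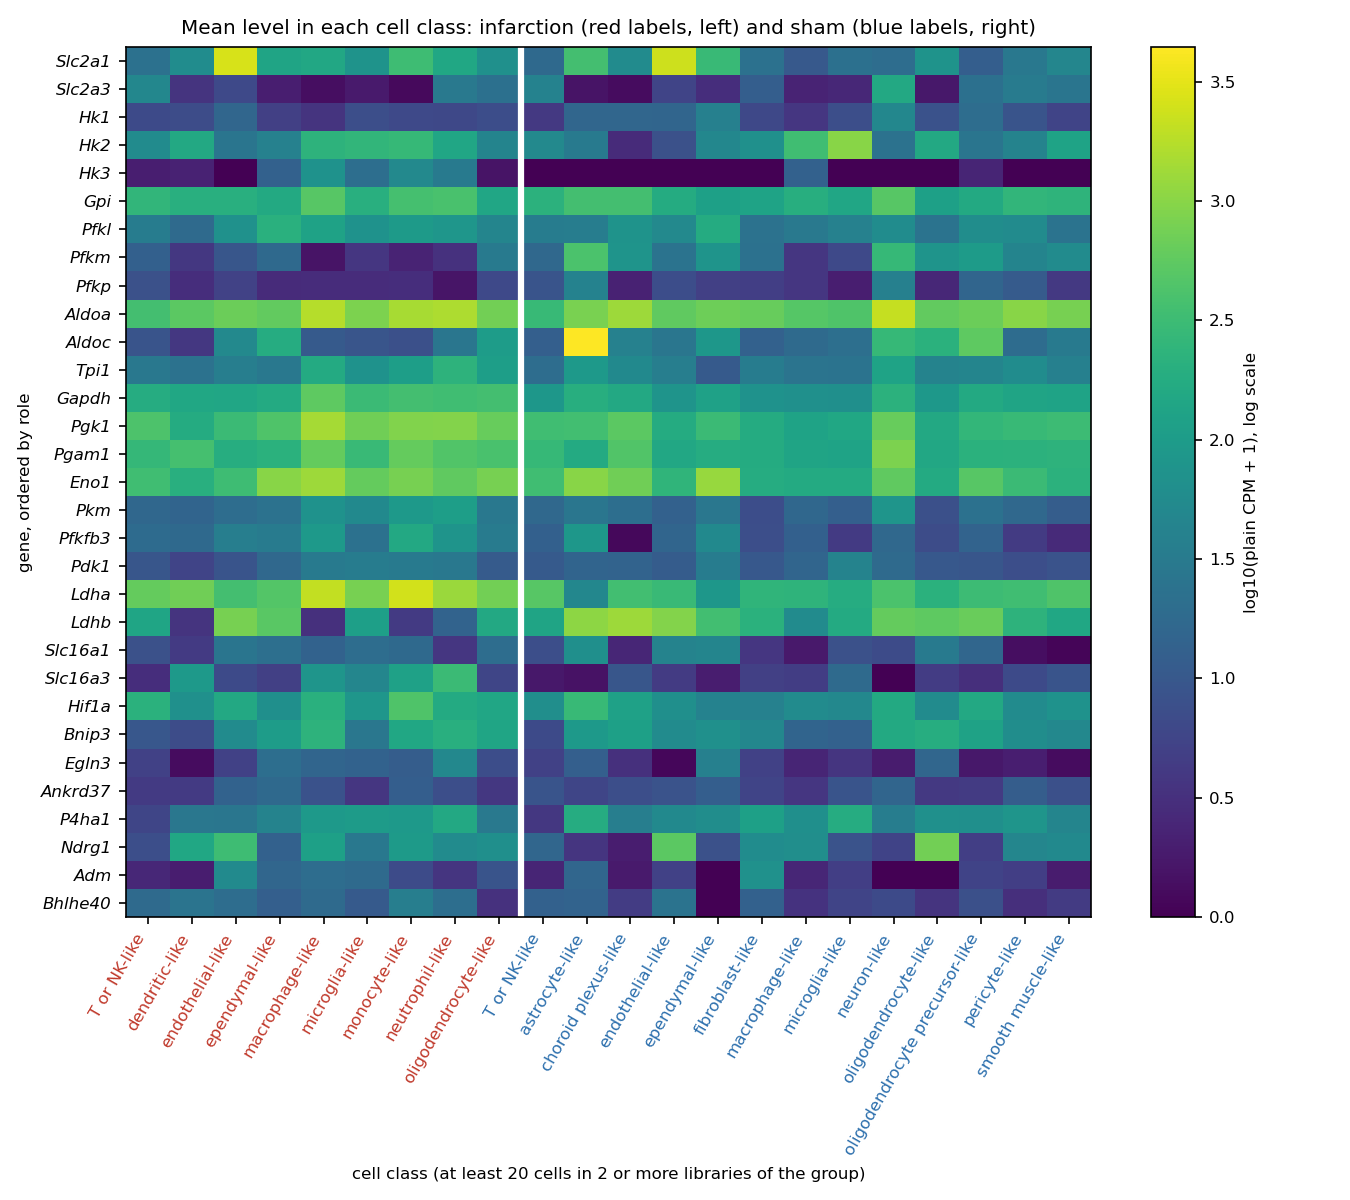
Mean level of each member in each cell class, as log10 of plain CPM plus 1, for infarction libraries (left) and sham libraries (right), with members grouped by role. Slc2a1 stands out in endothelial-like cells of both groups, and Aldoc in astrocyte-like cells of sham libraries.

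Summed over all cells, 23 of the 31 members tested were higher in infarction and 6 lower at an adjusted p under 0.05, with a median log2 fold change of 1.57 over the members and −0.13 over all genes. Here and below, the test is edgeR's quasi-likelihood test with Benjamini-Hochberg adjustment over all genes of the comparison, CPM are values after TMM scaling of the libraries, and each log2 fold change sets infarction against sham and carries its SE. As background, 33.2% of the 14613 genes tested in that comparison were called higher and 38.1% lower. In these sums, more cells of a type and more RNA per cell cannot be told apart. Pfkm fell to 1.98, 3.34 and 4.16 CPM in infarction, against 49.3, 47.5 and 53.8 CPM in sham (log2 fold change −3.99 ± 0.28, edgeR adjusted p = 7.02e-05). Aldoc stood at 11.6, 18.4 and 19.4 CPM in infarction, against 97.5, 62.1 and 223 CPM in sham (log2 fold change −2.95 ± 0.52), and Slc2a3 at 3.52, 4.67 and 4.88 CPM in infarction, against 17.97, 14.6 and 16.4 CPM in sham (log2 fold change −1.90 ± 0.17). The groups do not overlap for any of these 3. Ldhb, the heart-type lactate dehydrogenase subunit, was also lower, at 46.4, 26.8 and 55.3 CPM in infarction, against 306, 416 and 206 CPM in sham. Hk1 and Pfkp, the constitutive hexokinase and the platelet-type phosphofructokinase, were the other 2 called lower, with log2 fold changes of −0.44 ± 0.16 and −0.81 ± 0.25. Hk1 kept that call in 1 of the 6 fits that each left out 1 library, the one without sham 3, and Pfkp lost it without infarction 2, infarction 3, sham 1 or sham 3. P4ha1, the collagen prolyl 4-hydroxylase subunit, was called higher over all cells at 0.70 ± 0.23, and lost that call without infarction 1, infarction 2, sham 1 or sham 2. Hk2 at 297, 223 and 207 CPM in infarction, against 93.1, 149 and 224 CPM in sham, and Ankrd37 at 7.66, 7.24 and 5.99 CPM in infarction, against 5.76, 5.74 and 6.80 CPM in sham, did not pass the test.

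**Figure D2:**
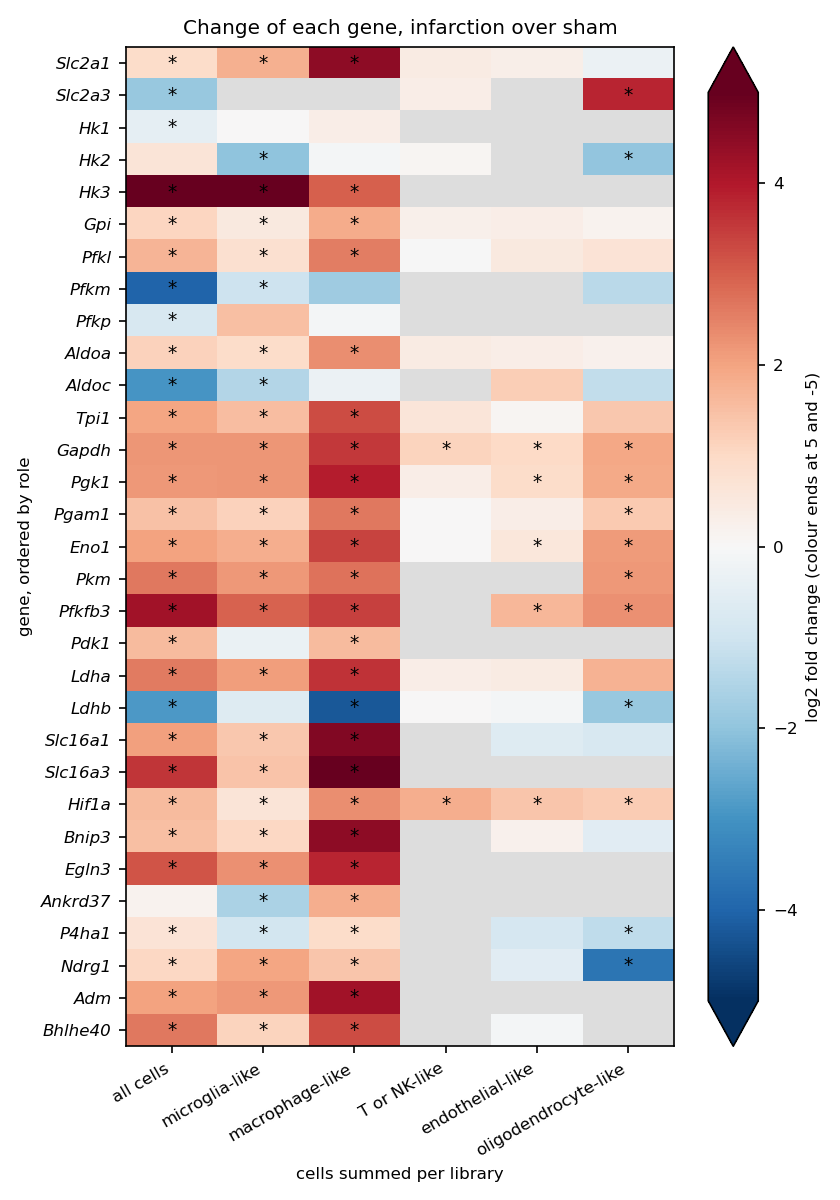
Log2 fold change (colour, infarction over sham) of each member (down the page, by role) over all cells and in 5 cell classes (across). Red marks higher and blue lower in infarction, the colour ends at 5 and −5, an asterisk marks an adjusted p under 0.05 and grey marks members not tested. The macrophage-like column is red for most members, and Hk2, P4ha1 and Ankrd37 are blue in the microglia-like column.

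Within the microglia-like class, 21 of the 30 members tested were higher in infarction and 5 lower, with a median log2 fold change of 1.25 over the members (1.25 also with Hk3, at 0 UMIs in sham, set to its bound) and −0.04 over all genes. As background, 31.7% of the 10237 genes tested in that comparison were called higher and 31.8% lower. In the macrophage-like class, 24 of the 30 members tested were higher and 1 lower, with a median of 2.67 over the members and −0.02 over all genes. There, 28.3% of the 10168 genes tested in that comparison were called higher and 27.8% lower. Both comparisons set different cells side by side. In infarction 94.2% of microglia-like cells belonged to 1 cluster that held 6.32% of them in sham, and 99.5% of macrophage-like cells belonged to a cluster that held none of those in sham. The 10 microglia markers, all detected in every library, summed to 2141 to 3153 plain CPM in microglia-like cells of infarction, against 10390.0 to 10852 in sham, and the 6 cycling markers to 711 to 1072, against 13.01 to 92.8. In macrophage-like cells 4 to 5 of 6 monocyte markers were detected in each group (Ly6c or Ace at 0), and they summed to 2158 to 3389 plain CPM in infarction, against 19.1 to 108 in sham. In the same cells the 11 dendritic markers summed to 58.6 to 75.2 in infarction (9 to 10 detected), against 1208 to 1406 in sham (7 detected), and the 10 microglia markers to 297 to 354 in infarction (10 detected), against 1802 to 2242 in sham (9 detected). The opposite shift was seen for the 9 oligodendrocyte precursor markers, at 724 to 1191 in infarction (7 detected), against 10.8 to 20.3 in sham (4 detected). The part of these shifts in the results was not tested. Without the clusters that carry cycling markers, 8, 59 and 55 microglia-like cells remained in infarction 1 to 3. Then 19 members could be tested, with 5 higher (Gapdh, Pkm, Ldha, Pgk1 and Eno1, at log2 fold changes of 0.59 to 1.43) and 1 lower (Hk2, at −0.89), and 6 members changed sign: Slc2a1 to −0.04, Gpi to −0.25, Pfkl to −0.68, Tpi1 to −0.01, Slc16a3 to −0.51 and Aldoc to 0.30. The 31.7% and 31.8% above belong to the full class and are no background for these counts. The share of all genes called in the smaller comparison is not given here. Without the cells that held 2 or more UMIs of the cycling markers, an alternative added after the data were seen, 25 of the 26 calls held, and that of Aldoc did not.

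In microglia-like cells the glucose transporter gene Slc2a1 was higher in infarction, and of the hexokinase genes, whose products trap glucose in the cell, Hk2 was lower, Hk3 was higher and Hk1 did not pass the test. In microglia-like cells Slc2a1 had 83.7, 74.6 and 62.0 CPM in infarction 1 to 3, against 22.8, 21.2 and 20.8 CPM in sham 1 to 3 (log2 fold change 1.78 ± 0.13, edgeR adjusted p = 1.52e-06). In macrophage-like cells Slc2a1 had 233, 183 and 125 CPM in infarction, against 12.3, 7.14 and 4.90 CPM in sham (log2 fold change 4.48 ± 0.36). Over all cells Slc2a1 had 194, 148 and 127 CPM in infarction, against 81.0, 92.8 and 71.9 CPM in sham (log2 fold change 0.93 ± 0.18). No infarction library of these 3 comparisons was as low as a sham library, and infarction 1 was the highest in each. Over all cells the log2 fold change of Slc2a1 turned to −0.24 when smooth muscle-like, pericyte-like and choroid plexus-like cells were left out. In microglia-like cells Hk2 had 253, 263 and 229 CPM in infarction 1 to 3, against 964, 1067 and 961 CPM in sham 1 to 3 (log2 fold change −2.01 ± 0.08, edgeR adjusted p = 8.98e-08). Every sham library stood far above every infarction library. In macrophage-like cells Hk2 did not pass the test, at 325, 246 and 232 CPM in infarction, against 293, 279 and 289 CPM in sham (log2 fold change −0.10 ± 0.13), and the groups overlap. The change in macrophage-like cells minus that in microglia-like cells was 1.96 ± 0.13 for Hk2 on the log2 scale (edgeR interaction test, adjusted p = 5.41e-09).

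Hk3, a hexokinase known from myeloid leukocytes, had 569 UMIs in microglia-like cells of infarction and 0 in those of sham, at least 116-fold higher when the sham level is set to 3 UMIs over the group. All 569 lay in the cluster with cycling markers that held 94.2% of the microglia-like cells of infarction. The microglia-like cells outside it, 59 in infarction 2 and 55 in infarction 3, had 0 Hk3 UMIs. In macrophage-like cells Hk3 had 88.2, 81.6 and 81.9 CPM in infarction, against 14.2, 7.14 and 10.8 CPM in sham (log2 fold change 2.99 ± 0.20, edgeR adjusted p = 2.51e-07). Over all cells Hk3 had 57.4, 51.8 and 58.6 CPM in infarction, against 0.301, 0.148 and 0.214 CPM in sham (log2 fold change 7.99 ± 0.24). Infarction and sham do not overlap for Hk3 in any of these comparisons. Hk1, the hexokinase of most tissues, did not pass the test in either phagocyte class, with 7.42, 6.11 and 6.11 CPM in infarction, against 6.95, 5.76 and 6.85 CPM in sham in microglia-like cells.

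Enzymes of the upper part of glycolysis, which turn glucose 6-phosphate into triose phosphates, were called higher in both phagocyte classes as Gpi, Pfkl and Aldoa, and lower in microglia-like cells as Pfkm and Aldoc. In microglia-like cells Gpi, the glucose 6-phosphate isomerase, had 201, 203 and 191 CPM in infarction 1 to 3, against 138, 145 and 144 CPM in sham 1 to 3 (log2 fold change 0.48 ± 0.07, edgeR adjusted p = 0.000156). In macrophage-like cells Gpi had 676, 581 and 513 CPM in infarction, against 164, 157 and 164 CPM in sham (log2 fold change 1.87 ± 0.12). Over all cells Gpi had 483, 402 and 388 CPM in infarction, against 216, 216 and 177 CPM in sham (log2 fold change 1.07 ± 0.13). The infarction libraries of Gpi all stood above the sham libraries. In microglia-like cells Pfkl, the liver-type phosphofructokinase, had 84.5, 63.8 and 61.5 CPM in infarction 1 to 3, against 34.8, 42.3 and 40.7 CPM in sham 1 to 3 (log2 fold change 0.82 ± 0.14). In macrophage-like cells Pfkl had 180.3, 140.0 and 116 CPM in infarction, against 15.2, 21.4 and 37.2 CPM in sham (log2 fold change 2.57 ± 0.30). Over all cells Pfkl had 133, 96.3 and 88.8 CPM in infarction, against 32.8, 37.7 and 27.9 CPM in sham (log2 fold change 1.69 ± 0.19). For Pfkl, too, the groups do not overlap, and infarction 1 was the highest library each time. In microglia-like cells Aldoa, the main aldolase, had 832, 860.1 and 789 CPM in infarction 1 to 3, against 443, 449 and 423 CPM in sham 1 to 3 (log2 fold change 0.92 ± 0.07). In macrophage-like cells Aldoa had 2242, 2082 and 1793 CPM in infarction, against 421, 391 and 412 CPM in sham (log2 fold change 2.32 ± 0.11). Over all cells Aldoa had 1683, 1533 and 1409 CPM in infarction, against 746, 746 and 614 CPM in sham (log2 fold change 1.13 ± 0.12). Aldoa was higher in every infarction library than in any sham library. The changes in macrophage-like cells exceeded those in microglia-like cells by 1.45 ± 0.12 for Gpi, 1.796 ± 0.21 for Pfkl and 1.47 ± 0.11 for Aldoa on the log2 scale (edgeR interaction test, adjusted p = 7.24e-08, 3.96e-06 and 2.01e-08).

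The isozyme genes Pfkm and Aldoc went the other way in microglia-like cells. In microglia-like cells Pfkm had 1.86, 3.49 and 3.05 CPM in infarction 1 to 3, against 4.47, 6.48 and 5.46 CPM in sham 1 to 3 (log2 fold change −1.04 ± 0.30). In microglia-like cells Aldoc had 4.56, 9.59 and 9.85 CPM in infarction 1 to 3, against 16.9, 13.1 and 31.4 CPM in sham 1 to 3 (log2 fold change −1.48 ± 0.46). Both stood at low levels, and the groups do not overlap for either. Astrocyte-like cells held 71.0% ± 11.4 of all Aldoc UMIs in sham (SD, n = 3), and smooth muscle-like cells 44.8% ± 4.91 of all Pfkm UMIs. In microglia-like cells the 10 astrocyte markers summed to 127 to 153 plain CPM in infarction (7 to 9 detected), against 213 to 362 in sham (5 to 9 detected), and the 10 smooth muscle markers to 4.20 to 5.25 in infarction (5 to 8 detected), against 931 to 1900.2 in sham (10 detected), with Pln and Actg2 at 0 in every infarction library. Their part in both calls was not tested. Aldoc lost its call without infarction 1, infarction 2, infarction 3 or sham 3. In macrophage-like cells neither passed the test, at log2 fold changes of −1.78 ± 0.75 for Pfkm and −0.28 ± 0.26 for Aldoc. Pfkp did not pass it in either class, at 1.49 ± 0.70 in microglia-like and −0.10 ± 0.56 in macrophage-like cells.

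Enzymes of the lower part of glycolysis, which convert triose phosphates into pyruvate, passed the test as higher in infarction in both phagocyte classes and over all cells for each of the 6 tested, Tpi1, Gapdh, Pgk1, Pgam1, Eno1 and Pkm. Among all genes tested, 31.7% were called higher in microglia-like cells, 28.3% in macrophage-like cells and 33.2% over all cells. Reads of these genes, of Aldoa and of Ldha can be shared with near-identical copies elsewhere in a mammalian genome, and how the deposited counts treated such reads is not given, so their levels are uncertain. In microglia-like cells Pgk1, the kinase of the first ATP-yielding step, had 741, 717 and 651 CPM in infarction 1 to 3, against 131, 163 and 157 CPM in sham 1 to 3 (log2 fold change 2.22 ± 0.10, edgeR adjusted p = 1.23e-07). In macrophage-like cells Pgk1 had 1834, 1726 and 1512 CPM in infarction, against 91.9, 118 and 124 CPM in sham (log2 fold change 3.92 ± 0.14). Over all cells Pgk1 had 1299, 1144 and 1097 CPM in infarction, against 270.3, 291 and 226 CPM in sham (log2 fold change 2.17 ± 0.13). The lowest infarction library of Pgk1 stood above the highest sham library each time. In microglia-like cells Gapdh, which oxidises glyceraldehyde 3-phosphate, had 347, 271 and 289 CPM in infarction 1 to 3, against 67.0, 61.7 and 67.8 CPM in sham 1 to 3 (log2 fold change 2.21 ± 0.10). In macrophage-like cells Gapdh had 823, 571 and 573 CPM in infarction, against 61.6, 43.7 and 64.6 CPM in sham (log2 fold change 3.54 ± 0.20). Over all cells Gapdh had 603, 419 and 446 CPM in infarction, against 116, 99.7 and 104 CPM in sham (log2 fold change 2.20 ± 0.16). Infarction 1 had the highest Gapdh level in each, and the groups do not overlap. In microglia-like cells Eno1, the ubiquitous enolase, had 664, 611 and 553 CPM in infarction 1 to 3, against 165, 177 and 175 CPM in sham 1 to 3 (log2 fold change 1.82 ± 0.08). In macrophage-like cells Eno1 had 1798, 1453 and 1274 CPM in infarction, against 134, 158 and 142 CPM in sham (log2 fold change 3.38 ± 0.15). Over all cells Eno1 had 1248, 1029 and 973 CPM in infarction, against 279, 304 and 229 CPM in sham (log2 fold change 2.0 ± 0.15). For Eno1 the sham libraries of a class were close together and well below the infarction libraries.

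Pkm, Tpi1 and Pgam1 showed the same direction. In microglia-like cells Pkm, pyruvate kinase, had 62.7, 43.5 and 51.9 CPM in infarction 1 to 3, against 11.4, 10.1 and 13.4 CPM in sham 1 to 3 (log2 fold change 2.16 ± 0.17). In macrophage-like cells Pkm had 90.9, 80.4 and 81.5 CPM in infarction, against 9.47, 11.9 and 17.6 CPM in sham (log2 fold change 2.70 ± 0.19). Over all cells Pkm had 84.4, 67.8 and 71.1 CPM in infarction, against 11.4, 11.8 and 12.5 CPM in sham (log2 fold change 2.64 ± 0.11). Every infarction library of Pkm stood above every sham library. In microglia-like cells Tpi1, the triose phosphate isomerase, had 74.7, 72.9 and 62.9 CPM in infarction 1 to 3, against 25.3, 21.2 and 25.8 CPM in sham 1 to 3 (log2 fold change 1.55 ± 0.11). In macrophage-like cells Tpi1 had 238, 206 and 148 CPM in infarction, against 17.0, 20.6 and 24.5 CPM in sham (log2 fold change 3.25 ± 0.22). Over all cells Tpi1 had 173, 138 and 109 CPM in infarction, against 39.3, 32.9 and 36.1 CPM in sham (log2 fold change 1.96 ± 0.18). Infarction 3 was the lowest infarction library of Tpi1 each time and still above every sham library. In microglia-like cells Pgam1, the phosphoglycerate mutase, had 299, 296 and 285 CPM in infarction 1 to 3, against 131, 139 and 128 CPM in sham 1 to 3 (log2 fold change 1.14 ± 0.07). In macrophage-like cells Pgam1 had 810.0, 742 and 559 CPM in infarction, against 114, 126 and 101 CPM in sham (log2 fold change 2.63 ± 0.16). Over all cells Pgam1 had 632, 585 and 490.5 CPM in infarction, against 215, 230.0 and 169 CPM in sham (log2 fold change 1.48 ± 0.15). The groups do not overlap for Pgam1. The changes of Pgk1, Gapdh, Eno1, Tpi1 and Pgam1 in macrophage-like cells exceeded those in microglia-like cells by 1.40 to 1.76 on the log2 scale, all past the threshold, and that of Pkm by 0.56 ± 0.24 (edgeR interaction test, adjusted p = 0.0823), which did not pass it.

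Among the genes that control flux, Pfkfb3 was called higher in all 5 comparisons in which it was tested. In microglia-like cells Pfkfb3 had 21.0, 22.4 and 22.8 CPM in infarction 1 to 3, against 4.97, 1.799 and 2.999 CPM in sham 1 to 3 (log2 fold change 2.93 ± 0.22, edgeR adjusted p = 2.21e-06). In macrophage-like cells Pfkfb3 had 106, 106 and 104 CPM in infarction, against 13.3, 6.35 and 10.8 CPM in sham (log2 fold change 3.40 ± 0.19). Over all cells Pfkfb3 had 75.3, 75.4 and 78.7 CPM in infarction, against 3.56, 3.14 and 5.82 CPM in sham (log2 fold change 4.20 ± 0.26). The infarction libraries lay close together, and all stood above the sham libraries. Pfkfb3 changed by 0.63 ± 0.29 more in macrophage-like than in microglia-like cells, which did not pass the test (edgeR interaction test, adjusted p = 0.145). In macrophage-like cells Pdk1, the kinase that shuts the pyruvate dehydrogenase complex, had 41.8, 38.8 and 30.02 CPM in infarction, against 8.52, 12.7 and 15.7 CPM in sham (log2 fold change 1.58 ± 0.24, edgeR adjusted p = 0.000138). In microglia-like cells Pdk1 did not pass the test, at 35.2, 34.9 and 28.0 CPM in infarction, against 42.7, 54.0 and 28.4 CPM in sham (log2 fold change −0.32 ± 0.24). Over all cells Pdk1 had 34.8, 31.8 and 25.7 CPM in infarction, against 8.95, 12.1 and 9.56 CPM in sham (log2 fold change 1.59 ± 0.17). Groups overlap in microglia-like cells and stand apart in the other two, and the change differed between the classes by 1.98 ± 0.26 (edgeR interaction test, adjusted p = 1.37e-05).

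The genes of lactate formation and export, Ldha, Slc16a3 and Slc16a1, were higher in infarction in both phagocyte classes, and their changes in macrophage-like cells exceeded those in microglia-like cells. In microglia-like cells Ldha had 792, 813 and 737 CPM in infarction 1 to 3, against 171, 196 and 179 CPM in sham 1 to 3 (log2 fold change 2.10 ± 0.08, edgeR adjusted p = 7.45e-08). In macrophage-like cells Ldha had 2831, 2513 and 1915 CPM in infarction, against 170.5, 234 and 189 CPM in sham (log2 fold change 3.61 ± 0.18). Over all cells Ldha had 2025, 1837 and 1551 CPM in infarction, against 320.1, 299 and 285 CPM in sham (log2 fold change 2.58 ± 0.12). Every infarction library of Ldha stood above every sham library, and infarction 1 was the highest in macrophage-like cells. In microglia-like cells Slc16a3 had 49.2, 48.5 and 41.2 CPM in infarction 1 to 3, against 20.4, 14.9 and 17.4 CPM in sham 1 to 3 (log2 fold change 1.44 ± 0.13, edgeR adjusted p = 7.55e-06). In macrophage-like cells Slc16a3 had 127, 92.5 and 62.4 CPM in infarction, against 1.89, 3.17 and 3.92 CPM in sham (log2 fold change 4.96 ± 0.45). Over all cells Slc16a3 had 113, 79.9 and 60.5 CPM in infarction, against 7.24, 7.46 and 6.54 CPM in sham (log2 fold change 3.58 ± 0.25). The macrophage-like values rest on 4948 Slc16a3 UMIs in infarction and 10 in sham, and infarction 1 was the highest library in all 3 comparisons. Slc16a1, the MCT1 transporter that carries lactate in either direction, had 809 UMIs in macrophage-like cells of infarction and 2 in those of sham, a ratio of 18.2 per UMI of the class. Its 95% interval of 5.04 to 151 covers counting error only. In microglia-like cells Slc16a1 had 18.6, 20.1 and 17.9 CPM in infarction 1 to 3, against 6.46, 6.84 and 8.14 CPM in sham 1 to 3 (log2 fold change 1.35 ± 0.14). The changes in macrophage-like cells exceeded those in microglia-like cells by 1.57 ± 0.13 for Ldha, 3.57 ± 0.39 for Slc16a3 and 3.28 ± 0.72 for Slc16a1 on the log2 scale (edgeR interaction test, adjusted p = 8.39e-08, 4.7e-06 and 0.00167).

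Ldhb, whose subunits favour the reaction from lactate to pyruvate, was the 1 member called lower in macrophage-like cells. In macrophage-like cells Ldhb had 1.74, 2.81 and 3.15 CPM in infarction, against 29.4, 62.7 and 54.9 CPM in sham (log2 fold change −4.25 ± 0.31, edgeR adjusted p = 2.21e-06). The groups do not overlap there. Choroid plexus-like cells had the highest mean Ldhb level among the classes of sham libraries. In macrophage-like cells the 9 choroid plexus markers summed to 2.23 to 5.38 plain CPM in infarction (3 to 5 detected), against 132 to 3624 in sham (3 to 7 detected), with Kl, Aqp1, Prlr and Otx2 at 0 in every infarction library. Likewise, the 10 smooth muscle markers summed to 1.60 to 14.6 in infarction (5 to 9 detected), against 927 to 2256 in sham (10 detected). Their part in the Ldhb call was not tested. In plain CPM, microglia-like cells had 118, 44.1 and 182 in infarction 1 to 3, against 72.6, 231 and 206 in sham 1 to 3. T or NK-like cells had 115, 24.4 and 279 in infarction 1 to 3, against 62.2, 199.7 and 142 in sham 1 to 3, and endothelial-like cells 721, 438 and 1248 in infarction 1 to 3, against 627, 1067 and 1109 in sham 1 to 3. In each of these 3 classes infarction 2 was the lowest and infarction 3 the highest of the infarction libraries, and sham 1 the lowest of the sham libraries. The groups overlap in all 3 and none passed the test, with log2 fold changes of −0.64 ± 0.69, 0.02 ± 0.97 and −0.09 ± 0.45 in microglia-like, T or NK-like and endothelial-like cells.

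**Figure D3:**
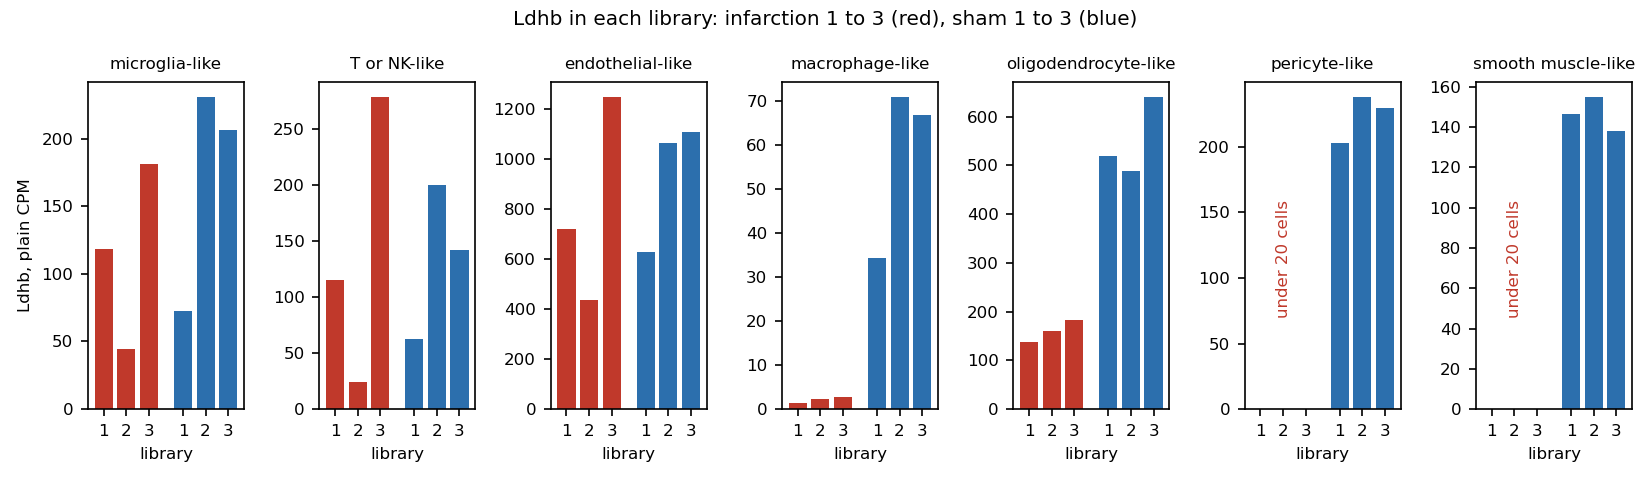
Ldhb level (bars, plain CPM) in libraries 1 to 3 of infarction (red, left) and of sham (blue, right), 1 panel per cell class with its own scale. In microglia-like, T or NK-like and endothelial-like cells infarction 2 is the lowest infarction library, and pericyte-like and smooth muscle-like cells have fewer than 20 cells in infarction.

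**Figure D4:**
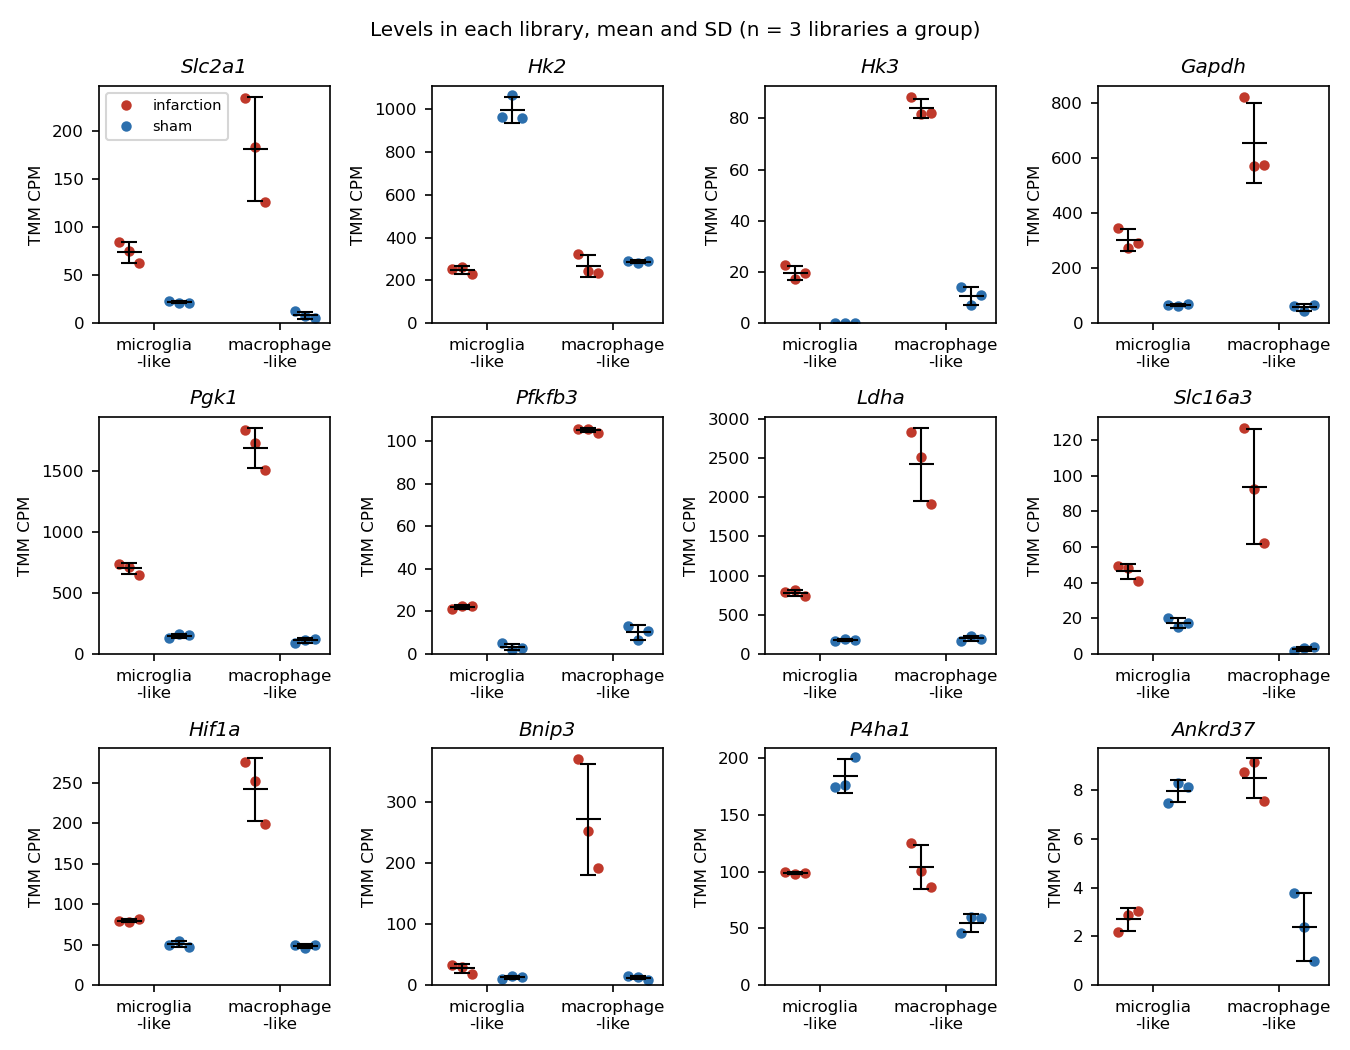
Level in every library (CPM after TMM scaling) of 12 members in microglia-like and macrophage-like cells, infarction in red on the left and sham in blue on the right of each class. Points are libraries, and bars give the mean and SD of 3 libraries. Hk2 is lower in all 3 infarction libraries of the microglia-like class and overlaps between groups in the macrophage-like class, and Ldha is higher in infarction in both.

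The balance of isozymes was followed as the share of the first gene in the UMIs of a pair, per library, for 33 combinations of pair and class. With 3 libraries against 3, the exact two-sided permutation test cannot go below 0.1, and the shares whose groups do not overlap all had p = 0.1 (0.22 after adjustment over the 33). Ldha made up 97.6% ± 1.01 of Ldha and Ldhb UMIs over all cells in infarction and 50.3% ± 8.15 in sham (SD, n = 3 each). In microglia-like cells its share was 87.1%, 94.9% and 80.5% in infarction, against 69.9%, 45.7% and 46.1% in sham. Macrophage-like cells had a share of 99.9%, 99.9% and 99.8% in infarction, against 85.3%, 78.9% and 77.5% in sham, and oligodendrocyte-like cells 87.5%, 84.4% and 69.7% in infarction, against 38.4%, 33% and 11.4% in sham. In these 4 sets of sums the groups do not overlap. Endothelial-like cells had 36.6%, 42.4% and 21.0% in infarction, against 28.8%, 20.6% and 23.6% in sham (exact permutation p = 0.3), and T or NK-like cells 83.2%, 96.2% and 69.1% in infarction, against 88.8%, 72.5% and 77.1% in sham (exact permutation p = 0.8), and both overlap. Among the phosphofructokinases, Pfkm took 3.096% ± 1.52 of Pfkm and Pfkl UMIs over all cells in infarction and 60.5% ± 5.04 in sham, and in microglia-like cells 2.15%, 5.18% and 4.73% in infarction, against 11.4%, 13.3% and 11.8% in sham. Hk3 took 92.0% ± 1.12 of Hk3 and Hk1 UMIs over all cells in infarction and 3.27% ± 1.09 in sham. Slc16a3 took 83.5% ± 2.54 of the monocarboxylate transporter pair in infarction and 65.1% ± 10.3 in sham over all cells, and in microglia-like cells 72.5%, 70.7% and 69.7% in infarction, against 75.9%, 68.6% and 68.1% in sham, which overlap. Shares over all cells also move with which classes a library holds.

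**Figure D5:**
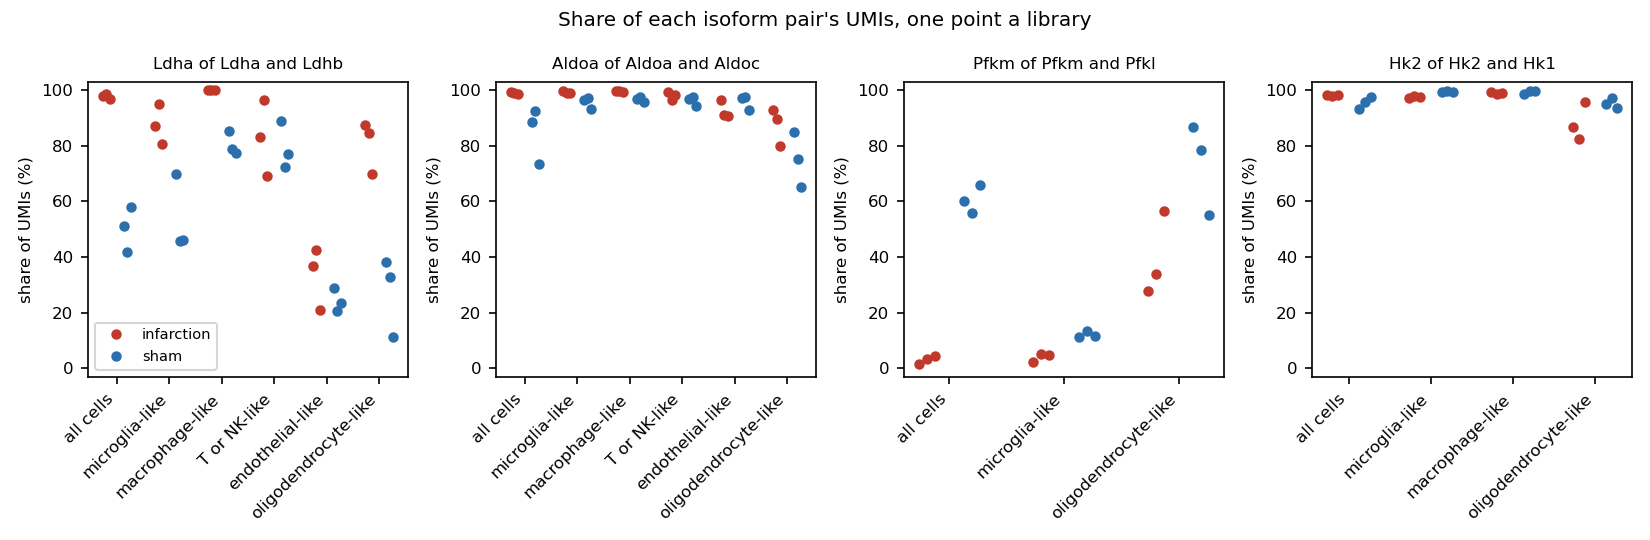
Share of the first gene of 4 isozyme pairs in the UMIs of the pair (percent) over all cells and in each class with at least 30 UMIs of the pair in every library, infarction in red on the left and sham in blue on the right, with 1 point per library. Ldha takes 96.6% to 98.6% of the Ldha and Ldhb UMIs over all cells in infarction, against 41.8% to 58.0% in sham.

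Of the 8 hypoxia response members, 6 were higher and 2 lower in microglia-like cells, and all 8 were higher in macrophage-like cells. Among all genes tested, 31.7% were called higher and 31.8% lower in microglia-like cells, and 28.3% and 27.8% in macrophage-like cells. In microglia-like cells Hif1a had 79.7, 78.4 and 81.2 CPM in infarction 1 to 3, against 49.7, 54.2 and 47.6 CPM in sham 1 to 3 (log2 fold change 0.66 ± 0.08, edgeR adjusted p = 6.77e-05). In macrophage-like cells Hif1a had 275, 252 and 199 CPM in infarction, against 49.3, 46.0 and 49.95 CPM in sham (log2 fold change 2.32 ± 0.15). Over all cells Hif1a had 212, 196 and 174 CPM in infarction, against 64.7, 68.7 and 62.9 CPM in sham (log2 fold change 1.57 ± 0.10). The groups do not overlap. These values are transcript levels, and HIF-1α is known to be controlled largely through protein stability. In microglia-like cells Bnip3, a mitophagy receptor, had 32.9, 29.7 and 18.7 CPM in infarction 1 to 3, against 9.44, 14.8 and 13.8 CPM in sham 1 to 3 (log2 fold change 1.04 ± 0.23). In macrophage-like cells Bnip3 had 369, 251 and 192 CPM in infarction, against 14.2, 13.5 and 8.82 CPM in sham (log2 fold change 4.46 ± 0.33). Over all cells Bnip3 had 199.9, 125 and 109 CPM in infarction, against 51.4, 52.7 and 47.5 CPM in sham (log2 fold change 1.52 ± 0.24). Infarction 1 had the highest Bnip3 level each time and infarction 3 the lowest of the infarction libraries, still above sham. In microglia-like cells Ndrg1, a stress-induced gene that myelinating glia also express, had 30.01, 23.2 and 28.9 CPM in infarction 1 to 3, against 9.93, 5.76 and 6.85 CPM in sham 1 to 3 (log2 fold change 1.97 ± 0.18). In macrophage-like cells Ndrg1 had 175, 127 and 117 CPM in infarction, against 71.0, 51.6 and 37.2 CPM in sham (log2 fold change 1.39 ± 0.23). Over all cells Ndrg1 had 114, 84.8 and 91.1 CPM in infarction, against 52.0, 40.0 and 49.9 CPM in sham (log2 fold change 1.03 ± 0.16). Ndrg1 was higher in every infarction library of these sums than in any sham library.

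P4ha1 and Ankrd37 were lower in infarction in microglia-like cells and higher in macrophage-like cells. In microglia-like cells P4ha1 had 99.2, 98.1 and 98.8 CPM in infarction 1 to 3, against 174, 177 and 201 CPM in sham 1 to 3 (log2 fold change −0.90 ± 0.08, edgeR adjusted p = 5.25e-06). In macrophage-like cells P4ha1 had 125, 101 and 86.5 CPM in infarction, against 45.5, 60.3 and 58.8 CPM in sham (log2 fold change 0.92 ± 0.17, edgeR adjusted p = 0.000641). Over all cells P4ha1 had 122, 88.1 and 77.4 CPM in infarction, against 49.5, 52.4 and 75.0 CPM in sham (log2 fold change 0.70 ± 0.23). Over all cells the lowest infarction library of P4ha1 was just above the highest sham library after TMM scaling. In plain CPM the groups overlap, at 68.1 to 100.1 in infarction, against 57.1 to 89.3 in sham. In microglia-like cells Ankrd37, an ankyrin repeat gene used as a hypoxia marker, had 2.17, 2.87 and 3.05 CPM in infarction 1 to 3, against 7.45, 8.28 and 8.14 CPM in sham 1 to 3 (log2 fold change −1.60 ± 0.23). In macrophage-like cells Ankrd37 had 8.76, 9.14 and 7.56 CPM in infarction, against 3.79, 2.38 and 0.979 CPM in sham (log2 fold change 1.82 ± 0.39). Both genes show no overlap between the groups in either class. The changes in macrophage-like cells minus those in microglia-like cells were 1.87 ± 0.16 for P4ha1 and 3.51 ± 0.47 for Ankrd37 (edgeR interaction test, adjusted p = 1.28e-07 and 1.67e-05). In macrophage-like cells Egln3, an oxygen-sensing prolyl hydroxylase, had 26.2, 15.8 and 9.51 CPM in infarction, against 2.84, 0.794 and 0 CPM in sham (log2 fold change 3.82 ± 0.93). In macrophage-like cells Adm, the vasodilator peptide adrenomedullin, had 26.0, 19.8 and 21.2 CPM in infarction, against 0, 0.794 and 2.94 CPM in sham (log2 fold change 4.20 ± 0.46). In macrophage-like cells Bhlhe40, a transcriptional repressor, had 20.5, 24.9 and 15.9 CPM in infarction, against 0.947, 2.38 and 2.94 CPM in sham (log2 fold change 3.27 ± 0.39). Sham libraries were near 0 for all 3, and the call of Egln3 was lost without sham 2. All 3 were also called higher in microglia-like cells, at log2 fold changes of 2.27 ± 0.38, 2.19 ± 0.23 and 1.11 ± 0.19 for Egln3, Adm and Bhlhe40. Over all cells Bhlhe40 had 24.7, 25.8 and 17.8 CPM in infarction, against 3.43, 4.04 and 3.54 CPM in sham (log2 fold change 2.63 ± 0.17).

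The test of the difference between classes took microglia-like cells as the class set against each other one. Its low-count filter covered both classes together, so members too rare to be tested in a class alone could enter. Among those named below, Ankrd37 was not tested in endothelial-like cells alone, nor Egln3 and Adm in oligodendrocyte-like cells, nor Slc2a3 in microglia-like cells. Of 31 members tested, 20 changed more upwards in macrophage-like than in microglia-like cells and 2 more downwards. As background, 18.8% of the genes tested in that comparison differed upwards and 17.9% downwards. The difference was 1.96 ± 0.13 for Hk2, 3.48 ± 0.24 for Bnip3 and 2.78 ± 0.26 for Slc2a1 on the log2 scale. In T or NK-like cells 2 of 30 members changed more upwards than in microglia-like cells (Hk2 and Hif1a) and 9 more downwards, where 7.15% and 10.6% of all genes tested did. In endothelial-like cells 3 of 30 did so upwards (Hif1a, Aldoc and Ankrd37) and 11 downwards, where 8.84% and 8.93% of all genes tested did. In oligodendrocyte-like cells 0 of 30 members did so upwards by edgeR and 4 downwards (Slc2a1, Slc16a1, Egln3 and Ndrg1), where 3.90% and 2.45% of all genes tested did. At an unadjusted p under 0.05, 3 members did so upwards there (Slc2a3, Hif1a and Adm).

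Of the members, 14 had enough UMIs to be tested in T or NK-like cells. Gapdh and Hif1a were higher and none was lower, with a median log2 fold change of 0.33 over the members and −0.01 over all genes. As background, 5.29% of the 4477 genes tested in that comparison were called higher and 3.19% lower. Lower calls numbered 0 by edgeR and by DESeq2, and 0 at an unadjusted p under 0.05. Hif1a had the highest log2 fold change, with 315, 157 and 201 CPM in infarction 1 to 3, against 55.0, 53.1 and 83.3 CPM in sham 1 to 3 (log2 fold change 1.81 ± 0.26, edgeR adjusted p = 0.000278). Gapdh had 196, 136 and 230.3 CPM in infarction, against 99.9, 73.6 and 83.3 CPM in sham (log2 fold change 1.13 ± 0.22). The groups do not overlap for either. In T or NK-like cells the 6 cycling markers summed to 179 to 718 plain CPM in infarction (6 detected), against 4.97 to 77.2 in sham (1 to 6 detected), the 10 smooth muscle markers to 3.05 to 9.09 in infarction (1 to 3 detected), against 809 to 1146 in sham (10 detected), and the 9 choroid plexus markers to 1.75 to 3.05 in infarction (1 to 2 detected), against 129 to 4512 in sham (1 to 8 detected). The 11 T or NK markers themselves summed to 3381 to 4589 in infarction, against 4172 to 4945 in sham, and the part of these shifts in both calls was not tested. Pfkl had the lowest log2 fold change, −0.01 ± 0.39, with 54.6, 16.6 and 32.6 CPM in infarction, against 36.7, 21.8 and 41.7 CPM in sham, and did not pass the test. Ldha stood at 603, 681 and 644 CPM in infarction, against 487, 584 and 471 CPM in sham (log2 fold change 0.32 ± 0.16, adjusted p = 0.236 in edgeR) and Eno1 at 0.02 ± 0.16.

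In endothelial-like cells 5 of 19 members tested were higher (Gapdh, Pgk1, Eno1, Pfkfb3 and Hif1a) and none lower, with a median log2 fold change of 0.32 over the members and −0.000407 over all genes. As background, 3.95% of the 5855 genes tested in that comparison were called higher and 4.56% lower. Lower calls numbered 0 by edgeR and by DESeq2, and 2 at an unadjusted p under 0.05 (P4ha1 and Ndrg1). Pfkfb3 had the highest log2 fold change, with 44.2, 31.2 and 41.4 CPM in infarction 1 to 3, against 13.1, 7.66 and 22.4 CPM in sham 1 to 3 (log2 fold change 1.66 ± 0.45, edgeR adjusted p = 0.0312). Hif1a had 128, 224 and 153 CPM in infarction, against 80.0, 58.4 and 52.4 CPM in sham (log2 fold change 1.37 ± 0.24) and Pgk1 398, 305 and 289.9 CPM in infarction, against 155, 167 and 202 CPM in sham (log2 fold change 0.93 ± 0.18). All 3 infarction libraries stood above all 3 sham libraries for each. Slc2a1, the transporter these cells use to supply the brain with glucose, did not pass the test, at 3237, 2743 and 2574 CPM in infarction, against 2402, 2062 and 2562 CPM in sham (log2 fold change 0.28 ± 0.13, adjusted p = 0.198 in edgeR). P4ha1 had the lowest log2 fold change, −0.84 ± 0.33, with 31.0, 24.9 and 28.7 CPM in infarction, against 52.6, 41.2 and 64.3 CPM in sham, and did not pass the test either. The class held 37, 43 and 71 cells in infarction and 79, 215 and 54 in sham. Of 12 macrophage markers 7 to 8 were detected in it in infarction and 6 to 8 in sham, with Cd163 and Ms4a7 at 0 in all 6 libraries, and they summed to 7750.4 to 8926 plain CPM in infarction, against 2912 to 5005 in sham, and their part in these calls was not tested. The count of 5 became 2 without infarction 1, which also gave 1 lower, and 3 without infarction 3 or sham 2. Eno1 lost its call in each of the 6 fits that left out 1 library, and Pfkfb3 in 5 of them, all but the one without sham 3. Gapdh lost its call without infarction 1, and Hif1a and Pgk1 kept theirs in all 6. In these cells the 10 smooth muscle markers summed to 86.4 to 1242 in infarction (3 to 9 detected), against 1648 to 2412 in sham (10 detected), and their part was not tested either.

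In oligodendrocyte-like cells 8 of 22 members tested were higher and 4 lower, with a median log2 fold change of 0.46 over the members and −0.02 over all genes. As background, 10.1% of the 6779 genes tested in that comparison were called higher and 7.89% lower. The members called higher were Slc2a3, Gapdh, Pgk1, Pgam1, Eno1, Pkm, Pfkfb3 and Hif1a. Slc2a3 had the highest log2 fold change but rests on 54 UMIs in infarction and 3 in sham, a ratio of 15.9 with a 95% counting interval of 5.15 to 79.4, and clustering at resolution 0.5 turned its log2 fold change to −0.25. Eno1 had 1011, 989.5 and 390.4 CPM in infarction 1 to 3, against 181, 214 and 154 CPM in sham 1 to 3 (log2 fold change 2.13 ± 0.41, edgeR adjusted p = 0.0118), and the groups do not overlap. Ndrg1 had the lowest log2 fold change, with 59.9, 50.2 and 79.4 CPM in infarction 1 to 3, against 1064, 803 and 550.0 CPM in sham 1 to 3 (log2 fold change −3.66 ± 0.37, edgeR adjusted p = 0.0019). Ldhb was lower too, at 149, 165 and 160.4 CPM in infarction, against 552, 536 and 688 CPM in sham (log2 fold change −1.90 ± 0.26), as were Hk2 at −1.97 ± 0.49 and P4ha1 at −1.26 ± 0.36. The class held unlike cells in both groups. The 10 oligodendrocyte markers summed to 5400.5 to 24316 plain CPM in infarction, against 25724 to 67215 in sham, the 6 Schwann markers to 147 to 379, against 2661 to 34146, and the 6 cycling markers to 998 to 1802, against 10.7 to 26.7. In these cells the 9 neuron markers summed to 575 to 1126 in infarction (7 to 9 detected), against 35.1 to 151 in sham (4 to 7 detected), and the 3 erythroid markers to 196 to 3007 in infarction (3 detected), against 0 in sham, where Hbb, Alas2 and Slc4a1 were all at 0. The part of these shifts in the calls, that of Slc2a3 included, was not tested. Median UMIs per cell were 6515, 991 and 1203.5 in infarction 1 to 3, against 4566, 4175.5 and 3944.5 in sham 1 to 3. The count of 8 higher became 3 without infarction 1, 0 without infarction 2, 4 without sham 1 and 2 without sham 2, and the count of 4 lower became 2 without infarction 1, infarction 2 or sham 2. Hk2 and P4ha1 each lost their call in 5 of the 6 fits that left out 1 library, all but the one without sham 3, while Ndrg1 and Ldhb lost theirs in none.

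Neighbouring pathways were counted from lists that held no member, beside 31.7% of all genes tested called higher and 31.8% lower in microglia-like cells, and 28.3% higher and 27.8% lower in macrophage-like cells. In the pentose phosphate pathway, the branch that makes NADPH and ribose from glucose 6-phosphate, 7 of 9 genes tested were higher and 1 lower in microglia-like cells, and 6 of 9 higher and 1 lower in macrophage-like cells. Values for the genes named from each list, those with the smallest p in microglia-like cells, are mean ± SD over 3 libraries of that class. Tkt, transketolase, had 377 ± 14.6 CPM in infarction and 202 ± 28.6 CPM in sham (log2 fold change 0.89 ± 0.10). Taldo1, transaldolase, had 429 ± 13.9 CPM in infarction and 228 ± 6.64 CPM in sham (log2 fold change 0.91 ± 0.07). Prps1, which makes the ribose donor of nucleotides, had 26.9 ± 3.75 CPM in infarction and 11.1 ± 0.941 CPM in sham (log2 fold change 1.28 ± 0.15).

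Against the same 31.7% higher and 31.8% lower of all genes in microglia-like cells, and 28.3% and 27.8% in macrophage-like cells, the counts of further lists were as follows. Of the other glycolysis isozymes and regulators, 2 of 11 passed the test as higher and 4 as lower in microglia-like cells, and 1 of 11 as higher and 5 as lower in macrophage-like cells. Slc2a5, the fructose transporter known as a microglial marker, had 94.4 ± 11.7 CPM in infarction and 221 ± 9.50 CPM in sham (log2 fold change −1.23 ± 0.10). Adpgk, an ADP-dependent glucokinase, had 86.8 ± 3.90 CPM in infarction and 41.8 ± 3.99 CPM in sham (log2 fold change 1.03 ± 0.09). Galm, which interconverts the forms of glucose, had 9.75 ± 0.578 CPM in infarction and 18.9 ± 1.37 CPM in sham (log2 fold change −0.98 ± 0.13). Of the genes for pyruvate entry to mitochondria, 3 of 10 passed the test as higher and 2 as lower in microglia-like cells, and 5 of 10 as higher and 0 as lower in macrophage-like cells. No gene of that list was lower at an unadjusted p under 0.05 in macrophage-like cells by edgeR. Dld, a shared dehydrogenase subunit, had 45.9 ± 2.81 CPM in infarction and 29.2 ± 0.177 CPM in sham (log2 fold change 0.66 ± 0.09). Pdha1, of pyruvate dehydrogenase, had 64.1 ± 14.9 CPM in infarction and 29.1 ± 5.39 CPM in sham (log2 fold change 1.20 ± 0.19). Pdp2, a phosphatase that turns that enzyme on, had 12.8 ± 1.03 CPM in infarction and 24.5 ± 2.24 CPM in sham (log2 fold change −0.94 ± 0.12). Of the other lactate genes, 1 of 6 passed the test as higher and 3 as lower in microglia-like cells, and 2 of 6 as higher and 1 as lower in macrophage-like cells. Emb, a chaperone of monocarboxylate transporters, had 3.64 ± 0.212 CPM in infarction and 0.371 ± 0.470 CPM in sham (log2 fold change 3.07 ± 0.53). Slc16a6 had 15.1 ± 2.74 CPM in infarction and 25.6 ± 1.28 CPM in sham (log2 fold change −0.79 ± 0.15), and Slc16a7, the MCT2 transporter, had 16.5 ± 2.89 CPM in infarction and 29.2 ± 4.96 CPM in sham (log2 fold change −0.83 ± 0.17).

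The counts of the pyruvate list above and of the glycogen and HIF pathway lists lay near those of all genes in microglia-like cells, where 31.7% were called higher and 31.8% lower (28.3% and 27.8% in macrophage-like cells). Of the glycogen genes, 3 of 12 passed the test as higher and 4 as lower in microglia-like cells, and 6 of 12 as higher and 1 as lower in macrophage-like cells. Pgm2 had 28.3 ± 2.10 CPM in infarction and 18.4 ± 1.45 CPM in sham (log2 fold change 0.63 ± 0.12). Gbe1, the branching enzyme, had 20.4 ± 2.35 CPM in infarction and 29.6 ± 5.86 CPM in sham (log2 fold change −0.58 ± 0.15). Of the HIF pathway components, 3 of 10 passed the test as higher and 2 as lower in microglia-like cells, and 2 of 10 as higher and 2 as lower in macrophage-like cells. Elob, an elongin subunit of the ligase that marks HIF-1α, had 606 ± 50.7 CPM in infarction and 359.8 ± 3.90 CPM in sham (log2 fold change 0.75 ± 0.08). Eloc, its partner, had 191 ± 14.1 CPM in infarction and 109.7 ± 5.24 CPM in sham (log2 fold change 0.80 ± 0.08), and Cul2, the scaffold of that ligase, had 20.9 ± 0.224 CPM in infarction and 14.5 ± 2.25 CPM in sham (log2 fold change 0.48 ± 0.13). Of the other HIF target genes, 9 of 17 passed the test as higher and 8 as lower in microglia-like cells, and 7 of 17 as higher and 4 as lower in macrophage-like cells. Plin2, which coats lipid droplets, had 94.0 ± 14.1 CPM in infarction and 13.5 ± 0.486 CPM in sham (log2 fold change 2.79 ± 0.13). Bnip3l, a mitophagy receptor, had 73.0 ± 4.42 CPM in infarction and 208 ± 13.8 CPM in sham (log2 fold change −1.51 ± 0.08). Higd1a, a mitochondrial stress protein, had 161 ± 20.3 CPM in infarction and 59.0 ± 1.25 CPM in sham (log2 fold change 1.45 ± 0.10). The median log2 fold change of these lists in microglia-like cells lay between −0.35 in the HIF pathway components and 0.62 in the pentose phosphate pathway, against −0.04 over all genes and 1.25 over the members.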

How the data were processed

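Single-cell 3′ libraries of 6 rat brain samples were read from the deposited matrices, which hold raw counts of UMIs. Per the submitters' processing notes, the authors made these counts with Cell Ranger 3.1.0 after CASAVA 1.8, and Seurat 2.3.4 is named too, while the genome build is not given in the sources used here. Groups come from the labels. The members and gene lists were chosen with earlier results of these data known.

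Barcodes passed with 500 UMIs and 200 genes or more and a mitochondrial share up to 20% (38685 of 44011), and cells over a Scrublet score of 0.25 were removed, because the automatic threshold marked 0%, 0% and 0.033% of cells in infarction 1 to 3. Cells were clustered in scanpy 1.11.5 (2000 variable genes, 30 components, 15 neighbours, Leiden resolution 1.0, 2 iterations). The number of iterations was set after running to convergence had merged neurons with oligodendrocytes. A cluster was named when at least 3 markers of a class were detected in 25% of its cells at a log2 difference of 1 or more, and clusters whose leading genes or depth went against the name stayed unnamed (6169 cells). Names rebuilt this way may differ from the authors' own.

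UMI counts were summed per library and class with at least 20 cells in all 6 libraries and tested with edgeR 4.0.16 (robust quasi-likelihood, TMM, filterByExpr, Benjamini-Hochberg over all genes tested) in R 4.3.3, and DESeq2 1.42.0 as an alternative. Differences between classes used an interaction term with library as a block. Isozyme shares needed 30 UMIs of the pair in every library and were tested by exact permutation over 20 assignments. Only the edgeR fit of infarction against sham was tried on simulated data first, for microglia-like, endothelial-like and oligodendrocyte-like cells. Other alternatives were no low-count filter, a 10% mitochondrial limit, no mitochondrial genes, no doublet removal, resolution 0.5, a replicate block and leaving out each library. Replicate libraries of a group differed by more than counting noise. All 33 members are accounted for, with values per library for those called in microglia-like cells or over all cells with no overlap and at least 20 CPM in the higher group. The highest and lowest log2 fold change in each other class and up to 3 genes of each list by smallest p are also given. A gene that this rule names is not reported here. Values of other members were chosen after they were seen.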

Additional observations from a re-analysis of the deposited data

Results flagged for a closer look

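Members whose infarction-to-sham change differed between a cell class and microglia-like cells by the interaction test are listed here, as the log2 change in the class minus the log2 change in microglia-like cells. The test is edgeR's quasi-likelihood test with library as a block, at an adjusted p under 0.05 over all genes of the pair of classes, and it gave 51 such differences.

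In macrophage-like cells the difference for glucose uptake was 2.78 for Slc2a1. In macrophage-like cells the difference within the glycolytic enzymes was 1.96 for Hk2, 1.45 for Gpi, 1.796 for Pfkl, 1.47 for Aldoa, 1.16 for Aldoc, 1.73 for Tpi1, 1.40 for Gapdh, 1.76 for Pgk1, 1.54 for Pgam1 and 1.62 for Eno1. In macrophage-like cells the difference within the control of flux was 1.98 for Pdk1. In macrophage-like cells the difference within lactate handling was 1.57 for Ldha, −3.54 for Ldhb, 3.28 for Slc16a1 and 3.57 for Slc16a3. In macrophage-like cells the difference within the hypoxia response was 1.72 for Hif1a, 3.48 for Bnip3, 3.51 for Ankrd37, 1.87 for P4ha1 and 2.21 for Bhlhe40. For Hk3, at 0 UMIs in microglia-like cells of sham, the difference can be given only as a bound: −3.87 or lower, with those cells set to 3 UMIs over the group.

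In T or NK-like cells the change lay above that of microglia-like cells by 2.19 for Hk2 and 1.19 for Hif1a. It lay below it at −1.24 for Slc2a1, −1.004 for Gapdh, −1.81 for Pgk1, −1.06 for Pgam1, −1.72 for Eno1 and −2.09 for Pkm. Further values lay below it at −2.32 for Pfkfb3, −1.71 for Ldha and −2.80 for Ndrg1. Pkm, Pfkfb3 and Ndrg1 had too few UMIs to be tested in T or NK-like cells alone. Ndrg1 had 11 UMIs there in infarction and 24 in sham. These members entered only because the low-count filter covered both classes together. In endothelial-like cells the change lay above that of microglia-like cells by 2.54 for Aldoc, 0.81 for Hif1a and 2.58 for Ankrd37. It lay below it at −1.40 for Slc2a1, −0.51 for Aldoa, −1.39 for Tpi1, −1.16 for Gapdh, −1.23 for Pgk1 and −0.75 for Pgam1. Further values lay below it at −1.17 for Eno1, −1.47 for Pkm, −1.61 for Ldha, −1.93 for Slc16a1 and −2.47 for Ndrg1. In oligodendrocyte-like cells the change lay below that of microglia-like cells at −1.90 for Slc2a1, −1.95 for Slc16a1, −3.57 for Egln3 and −5.31 for Ndrg1. Pkm and Ankrd37 in endothelial-like cells and Egln3 in oligodendrocyte-like cells also entered by that joint filter and were not tested in the class alone. The microglia-like change enters every one of these differences, so they are not independent of each other.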

How the results depend on the processing

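Of the 99 calls of a member in a comparison, 68 kept direction and threshold in all settings tried for them. A setting that could not test a call was not counted against it, as for Hk3, Adm and Egln3 in microglia-like cells without cycling clusters. Over all settings, 1286 values of single members kept both, 96 kept direction but no longer passed, and 8 changed direction. Without clusters carrying cycling markers, 5 members were higher and 1 lower in microglia-like cells, and 6 reversed: Gpi to −0.25, Tpi1 to −0.0065, Slc2a1 to −0.043, Aldoc to 0.30, Slc16a3 to −0.51 and Pfkl to −0.68. That setting leaves 8, 59 and 55 infarction cells and tests 19 members, and its share of all genes called is not given here. Slc2a1 over all cells turned to −0.24 without smooth muscle-like, pericyte-like and choroid plexus-like cells, and Slc2a3 in oligodendrocyte-like cells to −0.25 at resolution 0.5, which also left 2 members higher there. With no low-count filter 1 member was lower in endothelial-like cells. The cause was not tested for these. Leaving out 1 library in turn gave 1 to 2 members lower in macrophage-like cells. It gave 2 to 6 higher and 0 to 1 lower in endothelial-like cells, and 0 to 10 higher and 2 to 5 lower in oligodendrocyte-like cells. For the differences from microglia-like cells it gave 1 to 2 lower in macrophage-like cells, 1 to 4 higher in endothelial-like cells, and 0 to 1 higher and 1 to 5 lower in oligodendrocyte-like cells. The difference in Ldha share over all cells lay between 43.0 and 51.2 percentage points. In no class were the deviations of every same-numbered pair of libraries correlated above 0.1. With 3 libraries a group, that cannot settle whether replicate numbers pair the libraries. In oligodendrocyte-like cells same-numbered pairs had correlations of 0.102, 0.087 and 0.241, and the other pairs −0.160 to 0.101. With the replicate block, counts were 22 higher and 4 lower over all cells and 9 higher and 5 lower in oligodendrocyte-like cells, and equal to those without it in the other 4 comparisons. DESeq2's test gave 24 higher and 5 lower over all cells and 21 higher and 5 lower in microglia-like cells. Not run were the 10% mitochondrial limit in endothelial-like cells, which leaves 4 cells in the smallest library, and resolution 0.5 in macrophage-like cells, which leaves 3. Depth limits the members with few UMIs: 14 of 32 could be tested in T or NK-like cells and 19 in endothelial-like cells.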

Other observations

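Classes that the comparisons could not use carried the module too. In infarction 1 to 3 the members took 0.971%, 0.864% and 0.903% of the UMIs of monocyte-like cells and 0.954%, 0.722% and 0.549% of those of neutrophil-like cells. Dendritic-like cells, antigen-presenting cells of the same libraries, gave 0.307%, 0.302% and 0.291%. In sham 1 to 3 the shares were 1.06%, 0.974% and 1.02% in astrocyte-like cells and 0.796%, 0.733% and 0.697% in neuron-like cells. Within macrophage-like, microglia-like, monocyte-like, neutrophil-like and endothelial-like cells, infarction 1 had the highest summed share of the infarction libraries. Unnamed clusters held a mean of 27.1% of the cells in infarction, against 4.62% in sham. In infarction they held a mean of 12.1% (Adm) to 41.4% (Bhlhe40) of a member's UMIs, Eno2 aside.

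Neutrophil-like cells of infarction 1 to 3 had 340.4, 176 and 71.6 plain CPM of Bnip3 and 72.8, 50.1 and 24.7 of Egln3. Their Slc16a3 level varied less, at 288, 338 and 297. P4ha1 stood at 239, 131 and 102 and Gpi at 592, 364 and 229 in the same cells. For Bnip3, Egln3, P4ha1 and Gpi infarction 1 was the highest and infarction 3 the lowest, and neutrophil-like cells numbered fewer than 20 in sham 1 and sham 3.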
